A study of Mus musculus with 18 samples.

Results

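The Hox cluster genes of the mouse were followed through liver, brain and testis of PCGF6 KO and WT mice. The members were taken as every protein-coding row whose symbol is Hox, a cluster letter from a to d and a number, which gave 39 of the 52636 genes in the series, out of 22027 protein-coding genes. Poly-A RNA came from adult male C57BL/6 mice aged 8 weeks, labelled PCGF6 KO or WT, with 3 KO libraries (numbered 4 to 6) and 3 WT libraries (1 to 3) in each tissue and 18 in all. The labels name no allele or deleted exon, and nothing in them says that the libraries of a group came from separate animals, so p-values measure only the spread between these libraries, which may be technical.

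Hox genes encode homeodomain transcription factors that tell cells their position along the head-to-tail axis. They sit in 4 clusters, and low paralog numbers are used towards the head while high numbers are used towards the tail, the limbs and the urogenital tract. Outside their domains the clusters are a classic target of silencing by polycomb complexes, and Pcgf6 is the subunit that defines the polycomb complex PRC1.6, which is best known for keeping germ cell genes silent. In the adult, cells often keep part of the Hox code of the place they came from, so forebrain has almost none and the hindbrain and spinal cord keep a good deal.

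The 39 genes formed 4 blocks in the mm10 coordinates of the files. The Hoxa cluster (11 genes) lies on chromosome 6, the Hoxb cluster (10 genes) spans chr11:96194316-96368256, the Hoxc cluster (9 genes) chr15:102921103-103036852 and the Hoxd cluster (9 genes) chr2:74668310-74765142. The RefSeq promoter table (GRCm38.p6) held 24 windows for 22 of the 39 genes. The windows below are the 250 bases before the start of the leading Hox gene of liver (Hoxb4), the one with the highest mean in brain (Hoxa5), a leading one of testis (Hoxd8), and Hoxd1, the Hox gene with the most reads in the brain library that had almost no others. Capitals mark the E-box CACGTG, the sequence recognised by Max-type dimers such as the Mga and Max pair of PRC1.6, and the windows of the first 3 genes hold none.
Hoxb4, chr11:96318017-96318266, plus strand: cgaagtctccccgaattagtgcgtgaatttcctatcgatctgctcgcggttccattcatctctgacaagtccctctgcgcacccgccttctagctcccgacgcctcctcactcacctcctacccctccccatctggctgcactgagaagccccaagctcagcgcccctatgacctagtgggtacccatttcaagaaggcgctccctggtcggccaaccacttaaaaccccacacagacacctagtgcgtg
Hoxa5, chr6:52204588-52204837, minus strand: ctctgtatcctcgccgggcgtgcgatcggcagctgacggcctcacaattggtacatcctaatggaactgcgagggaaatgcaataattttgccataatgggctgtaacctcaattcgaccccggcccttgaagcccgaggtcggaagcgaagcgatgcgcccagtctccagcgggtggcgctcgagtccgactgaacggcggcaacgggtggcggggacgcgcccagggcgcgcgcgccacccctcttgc
Hoxd8, chr2:74704365-74704614, plus strand: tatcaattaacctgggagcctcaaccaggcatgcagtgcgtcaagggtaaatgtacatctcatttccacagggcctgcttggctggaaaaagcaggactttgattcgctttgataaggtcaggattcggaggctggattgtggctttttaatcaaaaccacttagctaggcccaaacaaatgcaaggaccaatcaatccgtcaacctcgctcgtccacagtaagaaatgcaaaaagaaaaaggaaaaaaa
Hoxd1, chr2:74762730-74762979, plus strand: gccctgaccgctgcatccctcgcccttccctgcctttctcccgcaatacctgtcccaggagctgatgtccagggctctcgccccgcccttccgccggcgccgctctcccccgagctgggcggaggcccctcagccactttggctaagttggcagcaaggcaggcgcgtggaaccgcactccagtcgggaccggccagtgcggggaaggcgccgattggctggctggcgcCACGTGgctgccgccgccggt

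Searched on both strands, CACGTG stood in 4 of the 24 Hox windows (16.7%), those of Hoxd1, Hoxd10, Hoxd11 and Hoxd13, against 6.02% of all 32851 windows. The other Hoxd11 window lacked it. Of the Hoxb and Hoxc clusters only Hoxb1, Hoxb4, Hoxb8 and Hoxc4 had a window, and Hoxa4 had no window. The share therefore does not stand for all Hox genes. The E2F-type motif TTCCCGC stood in 0 Hox windows and 3.82% of all windows, and GGCGGGAA, which contains the reverse complement of TTCCCGC, in 0 Hox windows and 1.86% of all. The Hox windows held a median of 12.5 CpG dinucleotides, with a range of 2 to 35, against a median of 6 over all windows. Among the printed windows Hoxa5 had 28 CpG, Hoxd1 24, Hoxb4 14 and Hoxd8 6. These matches describe letters in the windows only.

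Total reads per library lay between 18990130 and 23529098. Levels are given in FPKM, which divides reads by gene length and by a library size, or as reads recovered from the FPKM. Defining markers were found in the labelled tissues: hepatocyte markers summed to at least 65830 FPKM in each liver library and at most 25.3 elsewhere, spermatid markers to at least 18644 in testis and at most 15.0 elsewhere, and forebrain and midbrain markers to at least 76.9 in brain and at most 15.0 elsewhere. Pcgf6 itself was measured at 1.92 ± 0.65 FPKM in KO and 4.91 ± 0.79 in WT liver, 3.98 ± 0.60 in KO and 5.02 ± 0.38 in WT brain, and 9.93 ± 0.59 in KO and 20.9 ± 1.25 in WT testis (SD, n = 3 each). The KO values lay under all WT values in each tissue, yet none of the 3 differences passed limma's test adjusted over all genes (adjusted p = 0.485, 0.9998 and 0.0638), and the KO libraries kept reads of the gene. A gene is said to be called at an adjusted p under 0.05, and was tested where at least 10 reads were seen in at least 3 of the libraries in the fit.

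Libraries of one group were not alike in 2 tissues. The brain WT 1 library had 12 reads on all Hox genes together and brain WT 3 had 60, against 138 to 445 in the other 4 brain libraries. The testis WT 3 library carried epididymis transcripts: Crisp1, a secreted protein of the epididymis, measured 0.03, 0.14 and 0.14 FPKM in KO 4, 5 and 6, against 2.09, 19.2 and 133 in WT 1, 2 and 3. The summed level of the 10 epididymis and efferent duct markers was 1.34 to 3.72 FPKM in KO and 5.68, 23.7 and 145 FPKM in WT testis, and none of the 10 was at 0 in all 6 libraries. Markers of Sertoli cells summed to 336 to 408 FPKM in KO and 374 to 549 in WT testis, with the highest in WT 3, while those of spermatids summed to 21844 to 31666 in KO and 18644 to 26264 in WT testis, with the lowest in WT 3.

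The 3 tissues held different parts of the Hox code. Over its 6 libraries, liver had no read for 21 of the 39 genes, 1 to 9 reads for 8 and 10 or more for 10. Brain had no read for 14, 1 to 9 reads for 7 and 10 or more for 18. Testis had no read for 1, 1 to 9 reads for 8 and 10 or more for 30. Reads of paralogs 1 to 5 (15 genes) numbered 490 in liver, 1137 in brain and 7801 in testis. Those of paralogs 6 to 8 (8 genes) numbered 33, 206 and 7513, and those of paralogs 9 to 13 (16 genes) 2, 6 and 1802, in the same order of tissues. The reads of the posterior genes thus came almost wholly from testis. In whole tissue, fewer cells of a type and less RNA per cell cannot be told apart. A count of 0 in 6 libraries allows up to 3 reads over them, which covers counting error only.

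**Figure D1:**
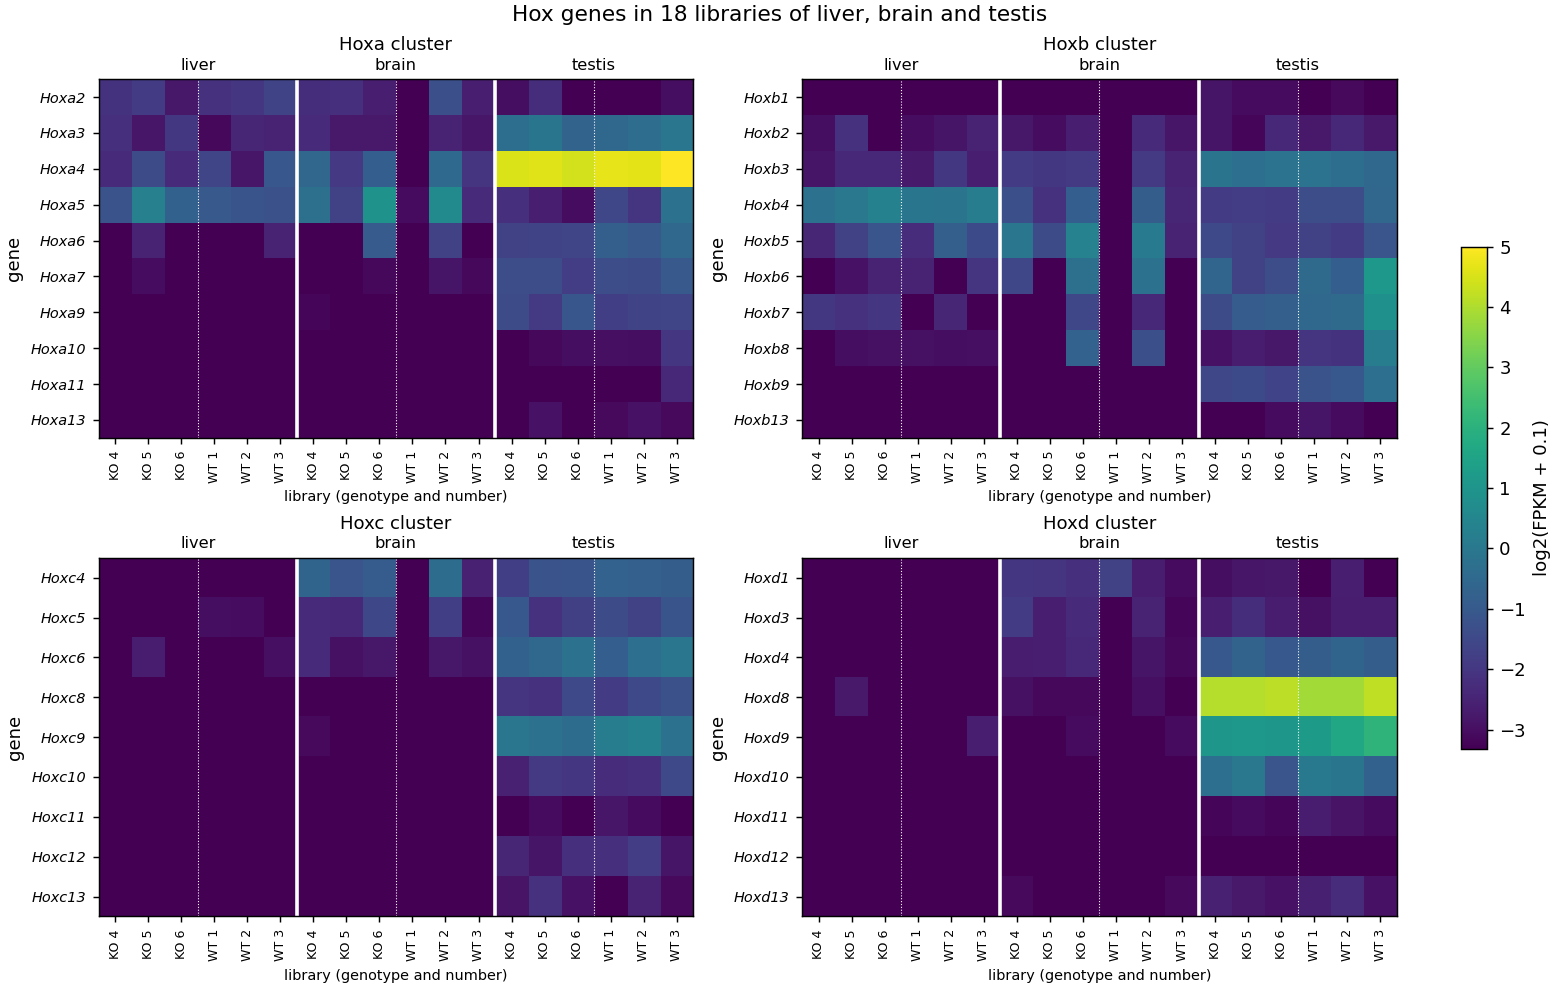
Level of the Hox genes, as log2(FPKM + 0.1) in colour, in rows by cluster and paralog number and in columns by library (KO left of WT within a tissue). Hoxa4 and Hoxd8 stand out in all 6 testis libraries, the brain WT 1 column is almost empty, and liver has signal mainly in Hoxb4 and Hoxa5.

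**Figure D2:**
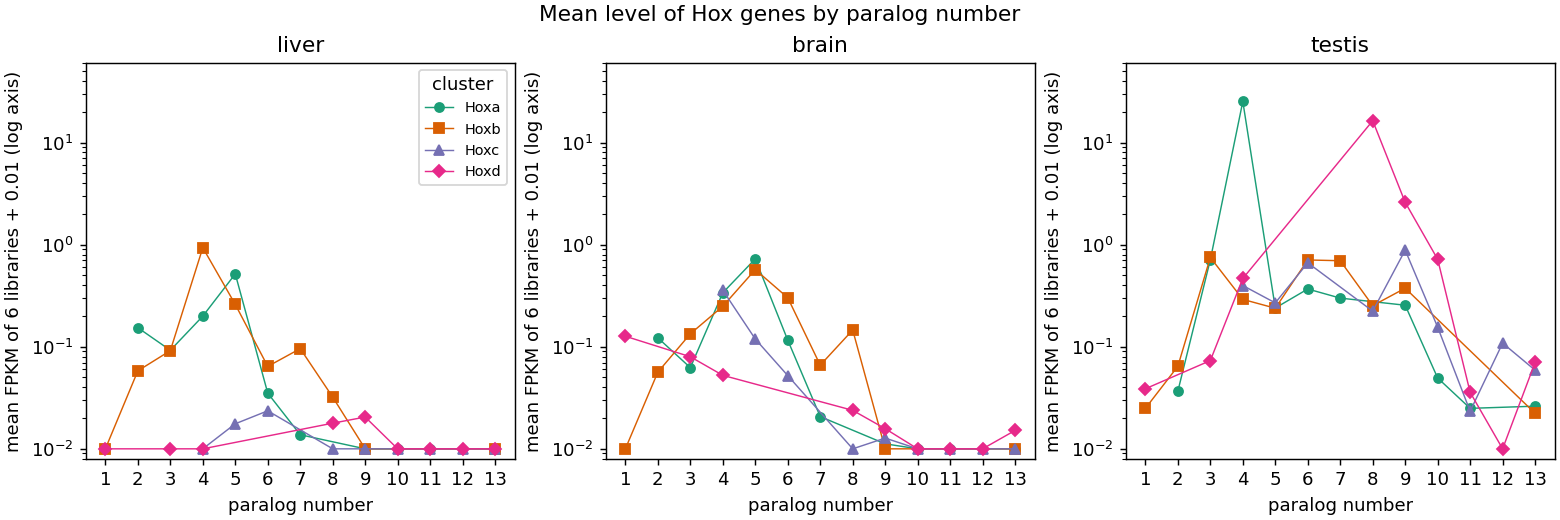
Mean FPKM of 6 libraries (3 KO and 3 WT) plus 0.01, on a log axis, against paralog number, with 1 line per cluster. Liver and brain levels are highest at paralogs 4 and 5 and are near the bottom of the axis from paralog 9 on. Testis has peaks at Hoxa4 and Hoxd8 and at least 1 gene above 0.1 FPKM at each paralog number from 3 to 10. The genes shown of paralogs 1 and 2 lie below 0.1 FPKM in testis.

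In testis, a pair of genes made up most of the Hox signal. Hoxa4 (chr6:52189671-52191753), whose transcripts are known from meiotic and later male germ cells of the mouse, measured 23.2, 24.2 and 21.4 FPKM in KO 4, 5 and 6, against 25.7, 25.2 and 31.7 in WT 1, 2 and 3. All 3 KO libraries lay below all 3 WT libraries. Hoxd8 (chr2:74704615-74707933), a middle-cluster gene used in the trunk of the embryo, measured 16.8, 16.6 and 17.7 FPKM in KO and 14.4, 14.4 and 18.2 in WT testis. Here the groups overlapped, because WT 3 lay above all others.

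Hoxa4 provided 47.2% and Hoxd8 30.6% of the summed Hox FPKM over the 6 testis libraries, and they ranked 2361 and 3394 among protein-coding genes by mean FPKM. The lowest Hoxa4 value, 21.4, lay above the highest Hoxd8 value, 18.2. Hoxd9 came next by mean, with 2.01 to 4.12 FPKM, and lay above all lower genes except for the WT 3 value of Hoxb6 (2.04 FPKM). Below it came Hoxc9 with 0.667 to 1.15 FPKM. From Hoxc9 to Hoxa9, the range of each gene overlapped that of its neighbours in the order. In reads, Hoxa4 had 836 to 972 in KO and 984 to 1236 in WT, and Hoxd8 had 1041 to 1199 in KO and 952 to 1218 in WT.

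Of the Hoxd genes with an E-box window, Hoxd10 had rank 6 among the Hox genes of testis by mean FPKM, with 16 to 41 reads in KO and 22 to 41 in WT. The others had few reads: Hoxd11 had 1 or 2 in KO and 2 to 6 in WT, Hoxd13 2 to 4 in KO and 2 to 7 in WT, and Hoxd1 1 or 2 in KO and 0 to 3 in WT. Hoxd12, whose window held no E-box, was the member with 0 reads in all 18 libraries. A link between the motif and the level was not tested. The Hoxd8 window printed above, with 6 CpG, belongs to the second most abundant Hox transcript of testis.

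The WT libraries were compared between tissues to place these levels. Against WT brain, 15 of 20 tested members were called higher in WT testis, where 50.1% of all genes were called higher. Against WT liver, 17 of 20 were called higher in WT testis, where the share over all genes was 57.8%, and 1 was called lower, against 29.9% of all genes. These counts do not support a direction, since 11 of the 20 members had no WT brain library with 10 reads and 16 had no such WT liver library. Such members passed the read filter only through testis, so that they could be called only higher there, and their levels and p-values below are a description. Of the 9 members with at least 1 WT brain library at 10 reads, 4 were called higher in WT testis (Hoxa3, Hoxa4, Hoxb3 and Hoxc5). Of the 4 with such a WT liver library, 1 was called higher (Hoxb3) and 1 lower (Hoxb4). The members called higher had 10 reads in every WT testis library, so they too passed the filter through testis alone. No member had 10 reads in every WT brain library, and only Hoxb4 had them in every WT liver library. The calls of Hoxa3, Hoxa4, Hoxb3 and Hoxc5 are thus a description as well.

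Hoxa4 averaged 27.5 ± 3.64 FPKM in WT testis, against 0.254 ± 0.328 in WT brain and 0.219 ± 0.17 in WT liver (SD, n = 3 each). Its log2 fold change was 6.73 ± 0.65 (SE) over brain (adjusted p = 3.92e-05) and 6.60 ± 0.43 over liver (adjusted p = 6.28e-06). All log2 fold changes are on the log2(FPKM + 0.1) scale, which understates the change of low genes.

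Hoxd8 averaged 15.7 ± 2.16 FPKM in WT testis and was seen with 2 reads over the 3 WT brain libraries and 0 over the 3 WT liver libraries (limma adjusted p = 2.49e-08 and 2.69e-08). Hoxd9, a gene of the lower trunk and limbs, averaged 3.14 ± 0.96 FPKM in WT testis, with 1 read in WT brain and 2 in WT liver (adjusted p = 8.63e-07 and 5.12e-06). Hoxc9, which patterns thoracic motor neurons, averaged 0.990 ± 0.193 FPKM and Hoxd10, which acts in lumbar motor neurons, 0.756 ± 0.232 FPKM in WT testis, both with 0 reads in WT brain and WT liver. The adjusted p was 9.96e-07 (brain) and 1.28e-06 (liver) for Hoxc9, and 8.48e-06 and 1.08e-05 for Hoxd10.

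Hoxb9, Hoxc8 and Hoxa9 were also at 0 reads in WT brain and WT liver, and averaged 0.488 ± 0.213, 0.252 ± 0.0713 and 0.219 ± 0.0223 FPKM in WT testis. Their adjusted p lay between 4.96e-06 and 5.66e-05. Of the anterior genes, Hoxa3, which shapes the thymus and parathyroid, averaged 0.712 ± 0.136 FPKM in WT testis, against 0.0387 ± 0.0369 in WT brain and 0.0592 ± 0.0407 in WT liver (adjusted p = 3.48e-05 and 6.96e-05). Hoxb3 averaged 0.701 ± 0.108 FPKM in WT testis, against 0.0807 ± 0.0824 and 0.0900 ± 0.0554 (adjusted p = 0.000587 and 0.000108).

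Hoxd4 and Hoxc6 averaged 0.479 ± 0.0532 and 0.686 ± 0.203 FPKM in WT testis and were called over both tissues with adjusted p from 1.11e-06 to 3.52e-05. Hoxa7 (0.324 ± 0.0648 FPKM) and Hoxb7 (0.973 ± 0.627 FPKM) were called over both as well, with adjusted p from 6.79e-06 to 0.000492. Hoxc5 averaged 0.280 ± 0.0655 FPKM in WT testis, against 0.0676 ± 0.107 in WT brain and 0.0152 ± 0.0133 in WT liver (adjusted p = 0.0170 and 5.96e-05). Its call over brain was lost when any of brain WT 1, brain WT 3, testis WT 1 or testis WT 3 was left out (adjusted p = 0.0520 to 0.0689).

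Hoxc4 and Hoxb6 were called higher in WT testis than in WT liver (adjusted p = 7.69e-07 and 0.00387) but not than in WT brain (0.116 and 0.0569). Hoxa5 and Hoxb5 were not called in either comparison (adjusted p = 0.692 to 0.914).

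Hoxb4 ran the other way. This gene, known for its action in blood-forming stem cells, averaged 0.384 ± 0.164 FPKM in WT testis, 0.177 ± 0.236 in WT brain and 0.896 ± 0.109 in WT liver. It was called lower in WT testis than in WT liver, with a log2 fold change of -1.08 ± 0.25 (SE, adjusted p = 0.00532). In WT brain against WT liver it was the 1 member of 3 tested that was called, with a log2 fold change of -2.20 ± 0.58 (adjusted p = 0.0101), and 35.3% of all genes were called lower there. Hoxb4 had 0, 31 and 6 reads in WT brain and 29, 32 and 39 in WT liver 1, 2 and 3. It thus passed the read filter through liver alone, and its call over brain is a description as well. Both calls were lost when FPKM was rescaled by the plain library totals (adjusted p = 0.167 and 0.0507).

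The deposited FPKM carry a library size that is larger than the read total in brain and testis and smaller in liver: the ratio of total to size ran from 1.44 to 1.52 in liver, 0.806 to 0.835 for brain and 0.823 to 0.969 for testis. The median log2 fold change over all genes was 0.42 for WT testis over WT brain, 1.06 for WT testis over WT liver and 0.32 for WT brain over WT liver. With plain totals, 15 and 17 members were called higher in WT testis than in WT brain and WT liver, against 48.4% and 66.9% of all genes. The limit of the read filter given above holds for these counts too.

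Of the 46 other rows inside the cluster spans, 22 had at least 10 reads over the 18 libraries, and 16 of these 22 had more reads in testis than in either of the other tissues. Hoxd3os1, an antisense RNA on the minus strand at chr2:74703248-74716130, whose span includes Hoxd8, had 1707, 1690 and 1500 reads in KO and 1695, 1712 and 1930 in WT testis, and 0 to 3 in each liver and brain library. In FPKM it averaged 23.6 ± 2.54 in KO and 25.1 ± 2.23 in WT testis, a level like that of Hoxa4. Haglr, a lincRNA beside Hoxd1, had 287 to 341 reads in KO and 311 to 494 in WT testis, and Hoxb5os had 190 to 215 in KO and 204 to 273 in WT testis. Hotair, the lincRNA of the Hoxc cluster, had 14 to 19 reads in KO and 16 to 21 in WT testis and 0 in liver and brain. In the other 6 (Hotairm1, Hoxaas2, 5730596B20Rik, Gm27477, Gm27861 and Hoxb3os) testis was not above both other tissues. Hoxaas2 had 40 reads over the 6 brain libraries and 15 over the 6 testis libraries, and Hoxb3os had 30 and 25. Hotairm1, an antisense RNA of the Hoxa cluster, had 53 reads over testis and 86 over brain, with 6 to 9 reads in KO and 6 to 12 in WT testis and 11 to 21 in KO and 5 to 20 in WT brain.

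The labels do not give a stranded kit. Where the exons of a gene and its antisense partner overlap, their reads may have gone to either gene or been left out. In GENCODE M21, 10 of the 39 genes share exon bases with an antisense gene and 9 with a gene on the same strand. Hoxd8, Hoxd9, Hoxb4, Hoxa5 and Hoxc9 share none, and Hoxa4 shares 255 of 1594 bases with Gm29430, which had 0 reads in testis. No testis read in those bases was thus counted for both Hoxa4 and Gm29430. Hoxb3 shares 52.9% of its exon bases with Hoxb3os, which had 2 to 8 reads in testis. Hoxd4 shares 11.8% with Hoxd3os1, which had 1500 to 1930 reads per testis library, against 26 to 41 for Hoxd4. Hoxa7 shares 20.4% with Hoxaas3, which had 11 to 31 reads per testis library, against 13 to 28 for Hoxa7. Whether these overlaps added testis reads to Hoxb3, Hoxd4 and Hoxa7 or removed them was not tested. Hoxd3 and Hoxd4 overlap each other on the same strand, over 62.3% and 52.3% of their exon bases with Gm28230 included, so the split of reads between them is uncertain.

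The KO libraries of testis were compared with the WT libraries to ask whether the Hox genes depend on Pcgf6 there. Of the 19 tested members, 0 were called in either direction, where 0.00448% of all genes were called (1 of 22341), and 5 had an unadjusted p under 0.05, as did 922 of the 22341 genes. Of the 19, 6 lay lower in every KO than in every WT library, namely Hoxa4, Hoxb4, Hoxb7, Hoxb9, Hoxc4 and Hoxd9, against 4.32% of all genes. None lay higher in every KO library, against 7.57% of all genes. The median log2 fold change of the 19 was -0.26, beside 0.03 over all genes, and 3 of the 19 (Hoxa9, Hoxb3 and Hoxd8) had a positive value.

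The 4 members with the smallest p came from 3 clusters. Hoxb4 measured 0.172, 0.186 and 0.174 FPKM in KO 4, 5 and 6, against 0.292, 0.287 and 0.574 in WT 1, 2 and 3, with a log2 fold change of -0.75 ± 0.25 (SE, limma adjusted p = 0.871). Its KO values were close to each other, and WT 3 lay far above the other WT libraries. Hoxb9, a gene of the thoracic region, measured 0.240, 0.262 and 0.220 FPKM in KO and 0.339, 0.392 and 0.731 in WT, with a log2 fold change of -0.73 ± 0.26 (limma adjusted p = 0.871). Again the WT 3 library was highest.

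Hoxc4, which is used in the neck region, measured 0.189, 0.340 and 0.347 FPKM in KO and 0.518, 0.484 and 0.446 in WT testis, with a log2 fold change of -0.60 ± 0.22 (limma adjusted p = 0.871). In this gene WT 3 was the lowest WT library. Hoxd9 measured 2.01, 2.07 and 2.01 FPKM in KO and 2.20, 3.11 and 4.12 in WT, with a log2 fold change of -0.56 ± 0.22 (limma adjusted p = 0.871). The KO libraries of Hoxd9 were nearly equal while the WT libraries were spread out, with WT 1 near the KO level.

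Among the other tested members, Hoxb6 and Hoxb7 had the most negative log2 fold changes, -1.16 ± 0.53 and -0.98 ± 0.39, and Hoxa4 had -0.26 ± 0.11. Hoxd8 had 0.13 ± 0.11, and the remaining 11 lay between -0.37 (Hoxc8) and 0.18 (Hoxa9).

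The WT 3 library held the highest value of 12 of the 19 tested members. The share over all genes was not counted, so this number does not set the Hox genes apart. Hoxb6 had 25, 10 and 14 reads in KO and 30, 23 and 98 in WT testis. Hoxb8 had 2, 4 and 3 reads in KO and 9, 9 and 67 in WT, and Hoxa5 had 5, 3 and 1 in KO and 11, 7 and 36 in WT. Hoxa10 and Hoxa11, which pattern the epididymis and vas deferens in the male mouse, had 0 to 2 and 0 reads in KO, and 2, 2 and 12 and 0, 0 and 5 reads in WT 1, 2 and 3. The same library carried the epididymis markers given above, with Crisp1 at 133 FPKM. It also stood highest in other marker lists. Erythroid markers summed to 21.2 to 34.6 FPKM in KO and to 32.3, 27.6 and 141 in WT 1, 2 and 3, peritubular and stromal markers to 36.7 to 42.4 in KO and 37.5, 43.3 and 67.6 in WT, and smooth muscle and meninges markers to 39.2 to 47.5 in KO and 40.9, 45.9 and 86.8 in WT. No gene of these lists was at 0 in all 6 libraries, and their part in the genotype difference was not tested.

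Without WT 3, 0 members were called, and 7 of 19 lay lower in every KO library, the 6 above and Hoxc9, where 9.09% of all genes did. The log2 fold changes were then -0.49 for Hoxb4, -0.45 for Hoxb9, -0.64 for Hoxc4, -0.35 for Hoxd9, -0.15 for Hoxa4, -0.53 for Hoxb7 and -0.58 for Hoxb6. The median over the 19 was -0.17. In the remaining WT libraries, WT 1 and WT 2, the epididymis and efferent duct markers still summed to 5.68 and 23.7 FPKM. They summed to 1.34 to 3.72 in KO, and their part in the remaining Hox difference was not tested.

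**Figure D3:**
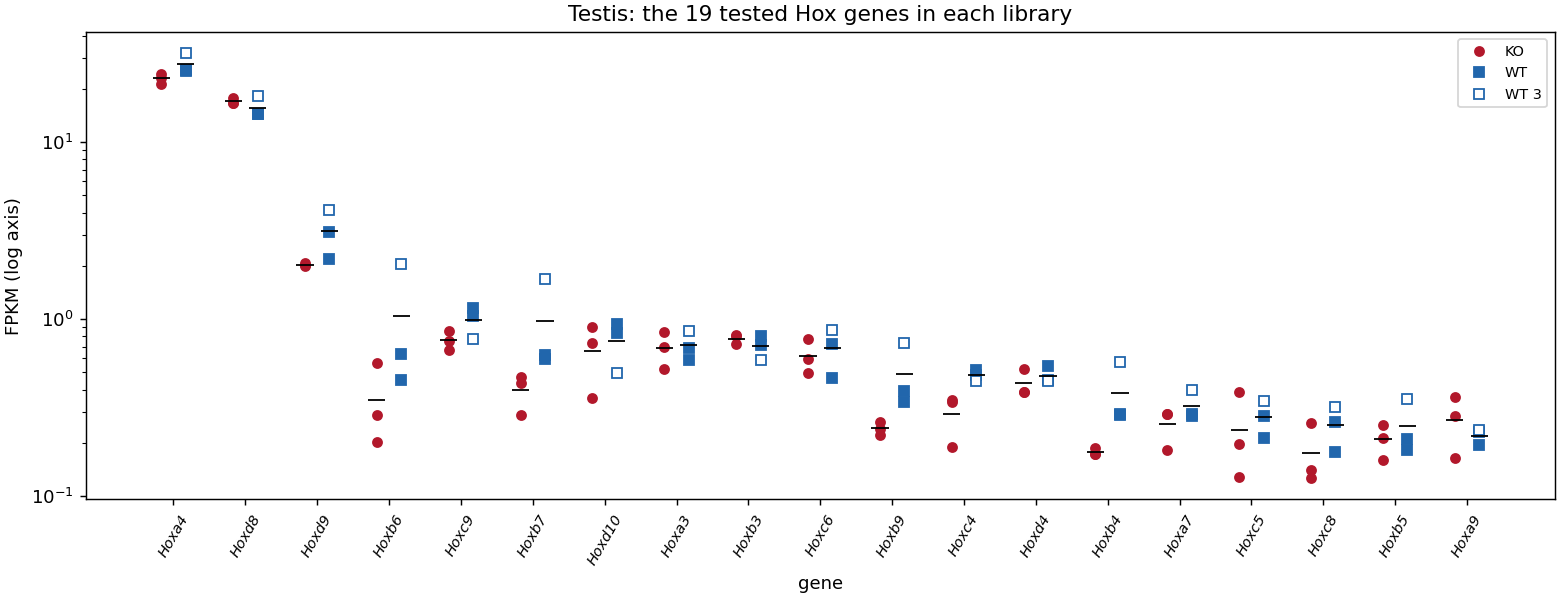
FPKM on a log axis of the 19 tested Hox genes in the 3 KO (red circles) and 3 WT (blue squares) testis libraries, with WT 3 as open squares and a black line at each mean. Hoxa4 and Hoxd8 lie above 14 FPKM in all libraries, and WT 3 is the highest point for 12 genes, most clearly Hoxb6 and Hoxb7.

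Untested members of testis included Hoxb8, Hoxa5, Hoxa6 and Hoxc10, which had too few libraries with 10 reads. Hoxa6 had 4, 5 and 5 reads in KO and 10, 9 and 13 in WT, and Hoxc10 had 3, 8 and 7 in KO and 5, 6 and 12 in WT. Hoxc12, Hoxc13, Hoxd3 and Hoxb2 had 0 to 12 reads per library. Hoxa2, Hoxa13, Hoxb1, Hoxb13, Hoxc11 and Hoxd11 had at most 6 reads in any testis library.

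Brain differed from the other tissues in how much its libraries varied. By the mean of the 6 libraries Hoxa5 and Hoxb5 were highest, but the leading gene was not the same in each library. In FPKM it was Hoxb5 in KO 4 (0.862), Hoxc4 in KO 5 (0.358), Hoxa5 in KO 6 (1.78) and WT 2 (1.43), Hoxd1 in WT 1 (0.213) and Hoxa4 in WT 3 (0.138). The paralogs from 9 up had 6 reads in all brain libraries together. Hoxa5 (chr6:52201754-52204587), which shapes the neck, lung and brainstem breathing circuits, had 35, 11 and 90 reads in KO 4, 5 and 6, against 1, 73 and 5 in WT 1, 2 and 3. Hoxb5 (chr11:96303336-96306121) had 60, 21 and 89 reads in KO and 0, 72 and 6 in WT. For both genes the WT 2 library lay within the KO range while WT 1 and WT 3 were lower than all of them.

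Of the 7 tested members, 0 were called in brain (lowest adjusted p = 0.9998), where 0.0837% of all genes were called (15 of 17922). None of the 7 had groups that did not overlap, against 9.08% of all genes, and none had an unadjusted p under 0.05. All 7 log2 fold changes were positive, with a median of 0.85, beside 0.01 over all genes. This median was 0.30 without WT 1 and 1.62 without WT 2, and Hoxb6 turned to -0.15 without KO 6.

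Hoxb3, a hindbrain gene, measured 0.179, 0.156 and 0.166 FPKM in KO and 0, 0.165 and 0.0775 in WT brain, with a log2 fold change of 0.67 ± 0.34 (SE, limma adjusted p = 0.9998). Hoxb5 measured 0.862, 0.277 and 1.19 FPKM in KO and 0, 0.952 and 0.0789 in WT, with 1.54 ± 0.85. Hoxc4 measured 0.546, 0.358 and 0.434 FPKM in KO and 0, 0.674 and 0.0713 in WT, with 1.19 ± 0.67. Hoxb4 measured 0.312, 0.129 and 0.463 FPKM in KO and 0, 0.445 and 0.0856 in WT, with 0.80 ± 0.61. The adjusted p of all 4 was 0.9998. In each the WT 2 library lay within or above the KO range.

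The other 3 tested members were Hoxa5 (1.27 ± 0.99), Hoxa4 (0.85 ± 0.69) and Hoxb6 (0.58 ± 1.01). Leaving out WT 1 brought the log2 fold changes of Hoxb3, Hoxb5, Hoxc4 and Hoxb4 to 0.30, 0.84, 0.57 and 0.24, and leaving out WT 2 brought them to 1.00, 2.54, 2.05 and 1.46. Hoxb6 had 0.06 without WT 1 and 1.62 without WT 2. No member was called in either case, and the lowest adjusted p, for Hoxc4 without WT 2, was 0.234.

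The brain libraries with few Hox reads also had the lowest sum of the 17 hindbrain and spinal cord markers, but not the lowest level of each. Slc6a5, the glycine transporter of hindbrain and spinal cord neurons, measured 6.78, 5.5 and 5.00 FPKM in KO 4, 5 and 6, against 1.24, 6.77 and 2.05 in WT 1, 2 and 3. Glra1, the glycine receptor subunit of the same regions, measured 5.69, 4.40 and 5.12 FPKM in KO and 2.63, 6.29 and 2.99 in WT. The 17 hindbrain and spinal cord markers summed to 27.9 to 30.9 FPKM in KO and 19.1, 31.1 and 20.2 FPKM in WT brain, and none was at 0 in all 6 libraries. Of these 17, 16 were tested and 0 were called. A positive log2 fold change was seen in 11 of the 16, with a median of 0.32 over the 16. Slc6a5 had a log2 fold change of 1.10 ± 0.52 (limma adjusted p = 0.9998). Other markers did not follow the Hox reads. Tph2 measured 3.17, 2.32 and 2.19 FPKM in KO and 2.71, 2.73 and 2.85 in WT. Gata3 measured 0.312, 0.508 and 0.299 FPKM in KO and 0.516, 0.537 and 0.433 in WT. The 14 cerebellum markers summed to 307 to 377 FPKM in KO and 327, 306 and 191 in WT brain, and the 14 forebrain and midbrain markers to 76.9 to 82.7 in KO and 89.7, 81.2 and 90.6 in WT. The part of these regions in the Hox difference was not tested.

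**Figure D4:**
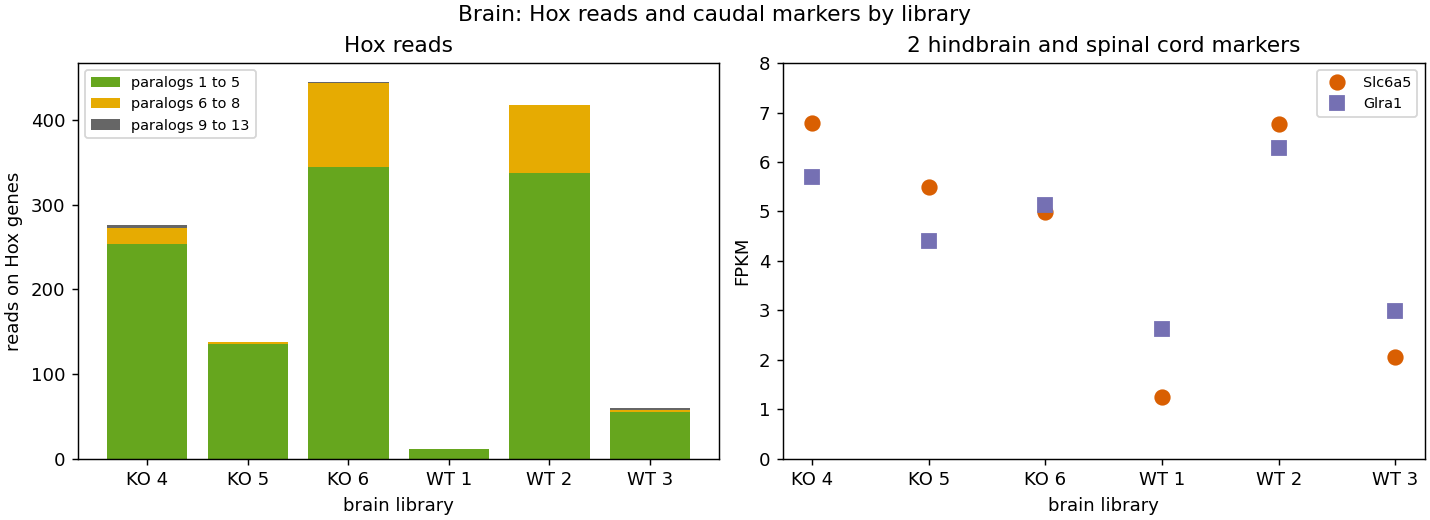
Left, reads on Hox genes in each brain library (KO left of WT), stacked by paralog number; right, FPKM of Slc6a5 and Glra1 in the same libraries. WT 1 and WT 3, with 12 and 60 Hox reads, have the lowest values of both markers, and WT 2 resembles the KO libraries with 418 reads.

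The middle paralogs of the Hoxa and Hoxb clusters were read mainly in KO 6 and WT 2. Hoxb6 had 12, 0 and 39 reads in KO and 0, 41 and 0 in WT. Hoxb8, which acts in the spinal cord and in a microglial lineage of the mouse, had 0, 0 and 36 reads in KO and 0, 22 and 0 in WT. Hoxa6 and Hoxb7 had 10 reads each in KO 6 and 5 and 4 in WT 2, and 0 in the other 4 libraries. Among the brain libraries, then, reads reached Hoxb8 only where the total was highest, at 445 reads in KO 6 and 418 in WT 2.

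Hoxd1, the most anterior Hoxd gene, did not follow this order. It had 7, 7 and 6 reads in KO and 11, 3 and 1 in WT brain, so WT 1, the library with 12 Hox reads in all, had 11 of them on this gene. The remaining read of WT 1 lay on Hoxa5. Hoxd1 was not tested because 1 library reached 10 reads. Its neighbour Haglr had 6 to 12 reads in KO and 4 to 11 in WT brain, with 4 in WT 1. Of the other untested brain members, Hoxc5 had 8, 8 and 21 reads in KO and 0, 16 and 1 in WT, Hoxd3 18, 7 and 11 in KO and 0, 9 and 1 in WT, and Hoxa3 15, 8 and 8 in KO and 0, 12 and 7 in WT. Hoxa2 had 3 to 6 reads in KO and 0, 15 and 3 in WT, Hoxb2 2 to 6 in KO and 0, 10 and 4 in WT, and Hoxd4 4 to 7 in KO and 0, 3 and 1 in WT. Hoxa7, Hoxa9, Hoxc6, Hoxc9, Hoxd8, Hoxd9 and Hoxd13 had at most 6 reads in any brain library.

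Liver had the least Hox signal, between 57 and 120 reads per KO library and between 60 and 101 per WT library. Hoxb4 (chr11:96318267-96321638), whose promoter window is printed above, had 25, 36 and 39 reads in KO and 29, 32 and 39 in WT, and gave 36.7% of the summed Hox FPKM of liver. Hoxa5 gave 20.1% and Hoxb5 9.92%. The Hoxb4 groups overlapped.

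Of the 3 tested members, 0 were called in liver, where 0.0212% of all genes were called (3 of 14124), and 0 had groups that did not overlap, against 9.52% of all genes. None had an unadjusted p under 0.05. Hoxb4 averaged 0.951 ± 0.203 FPKM in KO and 0.896 ± 0.109 in WT (SD, n = 3 each), with a log2 fold change of 0.07 ± 0.20 (SE, limma adjusted p = 0.9997). Hoxa5 measured 0.339, 1.13 and 0.494 FPKM in KO and 0.402, 0.348 and 0.322 in WT liver, with 0.59 ± 0.38 (adjusted p = 0.9997). The value rests on KO 5, and without that library it was 0.16. Hoxb5 measured 0.0857, 0.208 and 0.360 FPKM in KO and 0.108, 0.469 and 0.265 in WT liver, with -0.24 ± 0.47 (adjusted p = 0.9997). The direction turned to 0.11 without WT 2 and 0.10 without KO 4 for Hoxb5, and to -0.080 without KO 6 for Hoxb4.

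Hoxa4, the leading gene of testis, had 2, 7 and 2 reads in KO and 5, 1 and 9 in WT liver. Hoxa3 had 9, 4 and 12 reads in KO and 1, 8 and 7 in WT, Hoxb3 2 to 6 in KO and 3 to 10 in WT, and Hoxa2 1 to 5 in KO and 3 to 6 in WT. Hoxb7 had 3 reads in each KO library and 0, 2 and 0 in WT. Hoxb2 had 0 to 7 reads in KO and 1 to 4 in WT, and Hoxa6, Hoxa7, Hoxb6, Hoxb8, Hoxc5, Hoxc6, Hoxd8 and Hoxd9 had at most 4 in any liver library. The Hoxc and Hoxd clusters had 2 reads each in KO liver and 3 and 2 in WT liver. Reads outside Hoxa and Hoxb were thus too few in liver for a comparison of genotypes.

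**Figure D5:**
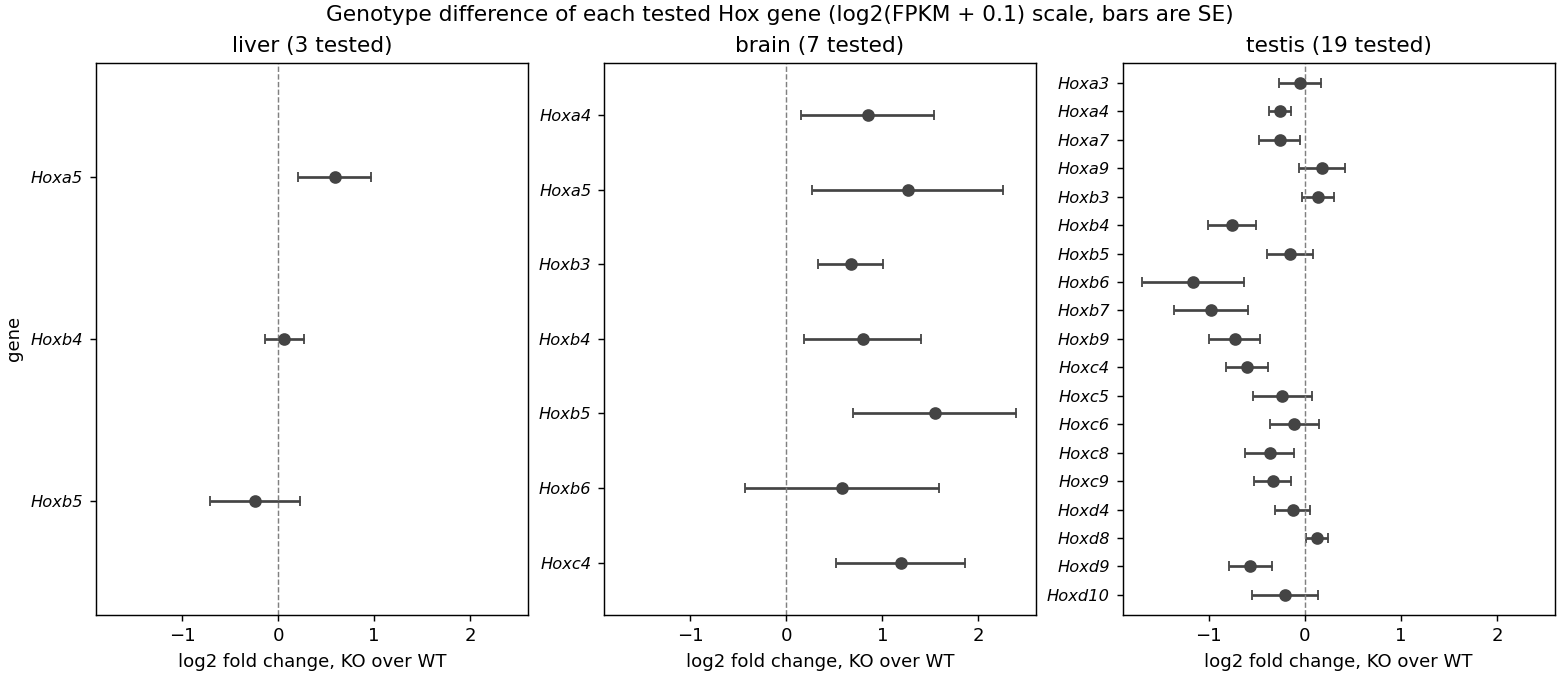
Log2 fold change of KO over WT on the log2(FPKM + 0.1) scale for the tested Hox genes of liver (3), brain (7) and testis (19), with bars for the limma SE. The 7 brain values are positive and 16 of the 19 testis values are negative, and none passed the adjusted test.

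Whether the genotype difference itself differed between tissues was tested with an interaction term on genes tested in both. Between testis and brain, 0 of 6 members were called, where 0.0626% of all genes were called. The smallest p was that of Hoxc4, with -1.79 ± 0.78 (log2 scale, SE, limma adjusted p = 0.928), which was called when brain WT 2 was left out. Between testis and liver, 0 of 2 members were called, against 0.0457% of all genes, and Hoxb4 had -0.82 ± 0.33 (adjusted p = 0.987). Between brain and liver, 0 of 3 members were called, against 0% of all genes.

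The genes that work with or upstream of Hox genes also passed no test in KO against WT. Of the 9 TALE homeodomain genes, the Pbx, Meis and Pknox cofactors with which Hox proteins bind DNA, 8 were tested in liver and 9 each in brain and testis, and 0 were called. The median log2 fold change of the list was -0.06 for liver, -0.05 for brain and -0.00024 for testis. Pbx4, the cofactor of spermatocytes, was the most abundant in testis with 47.2 ± 2.26 FPKM in KO and 47.2 ± 1.31 in WT, and Pbx2 averaged 12.1 ± 0.81 in KO and 12.5 ± 0.68 in WT brain. Of the 24 polycomb and trithorax regulators, all 24 were tested in each tissue and 0 were called, with a median of -0.03 for liver, 0.03 for brain and -0.05 for testis. Psip1, which tethers the Mll complex to chromatin, averaged 56.6 ± 2.52 FPKM in KO and 52.6 ± 6.96 in WT testis.

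Of the 18 genes of retinoic acid signalling, the pathway that switches on anterior Hox genes in the embryo, 13 were tested in liver, 16 in brain and 18 in testis, and 0 were called (medians -0.15, 0.01 and -0.04). Aldh1a1, which makes retinoic acid, averaged 342 ± 47.6 FPKM in KO and 296 ± 19.2 in WT liver. Of the 13 ParaHox, Evx and related homeobox genes, 0 were tested in liver, 4 in brain and 3 in testis, and 0 were called. Meox1 averaged 0.985 ± 0.363 FPKM in KO and 1.28 ± 0.23 in WT testis.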

How the data were processed

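The authors deposited FPKM per gene and library. The submitters' processing notes name mm10, HISAT2 2.0.5, featureCounts 1.5.0-p3 and DESeq2 1.16.1, with no order. Multiplied by gene length, the FPKM of a library came in equal steps (tolerance 0.01 reads), so reads were recovered; depth limits low genes, and counting limits cover counting error only. Because FPKM are not counts, limma 3.58.1 (R 4.3.3) with trend was run on log2(FPKM + 0.1), with p-values adjusted by Benjamini and Hochberg over all tested genes. The members and gene lists were chosen with earlier results of these data known. 1 member is counted in the totals but not reported by itself here, in text or figures. Named in full were called members and the 4 with the smallest p per tissue. Each list gave its count and at most 2 members by level, with markers that moved with a Hox result added after their values were seen. In tests on simulated data, 49.3% (testis), 61.2% (brain) and 56.1% (liver) of 2-fold changes were recovered. The changes were placed only in genes above a minimum mean read count, and the same fixed spread was used for all genes. Several tested Hox genes had fewer reads (Hoxc8 and Hoxb5 in testis) or more uneven ones (Hoxa5 and Hoxb5 in brain). These shares therefore do not hold for such genes.

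Library numbers are shared across tissues but not between KO and WT. For the difference of KO effects between testis and liver, the deviations of all 6 same-numbered pairs correlated at 0.118 to 0.228. Differently numbered pairs were not correlated for comparison, so these values do not show whether such libraries came from the same animals. The values given are from fits without the number as a block. No Hox call changed with the block. Alternatives covered the pseudocount, the filter, library totals, voom, left-out libraries, 1 fit over 18 libraries and the block. Figures used Python 3.11.15 with matplotlib 3.10.9.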

Additional observations from a re-analysis of the deposited data

How the results depend on the processing

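Of 867 alternative values for 64 results, 851 were rated the same as the main value. For a fold change this meant the same direction and side of the threshold. For a count of members it meant a count equal or close to the main one. No Hox gene was called between KO and WT in any tissue under any of the 13 alternatives run there. With 1 liver library left out, the log2 fold change of Hoxb5 ran from -0.61 to 0.11 (0.10 without KO 4) and that of Hoxb4 from -0.080 to 0.19. In brain, Hoxb6 turned to -0.15 without KO 6. The cause was not tested. Members called lower in WT testis than WT liver numbered 2 with a looser filter and with no filter (Hoxa2 and Hoxb4, more genes tested). They numbered 0 with library totals, where 20.9% of all genes were called lower, and 1 to 2 with a library left out. Those lower in WT brain than WT liver numbered 0 with library totals, where 21.2% of all genes were called lower. With a library left out they numbered 1 to 3 (3 without brain WT 2). Hoxb4, called in the main fit, had passed the read filter through liver alone. The testis minus brain difference of the genotype effect had 0 to 1 called (Hoxc4, without brain WT 2). Members lower in KO testis without overlap numbered 6 (4.32% of all genes), and 7 to 9 with a library left out (7.49% to 9.61% of all genes), an alternative chosen after seeing the data.

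No paired analysis of KO against WT was possible because those groups share no library number. Across tissues, with the replicate number as a block, 15 and 17 members were called higher in WT testis than in WT brain and WT liver, as without it. The read filter limits these counts in the same way. Correlations of same-numbered libraries ran from -0.018 to 0.24 in the comparisons other than the testis and liver difference of genotype effects. The numbers were not taken as pairs in any of the values given. Members under the read filter were compared only with the looser filter or none, and at their depth such values are uncertain.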
